A study of Mus musculus with 6 samples.

Results

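The mitosis and spindle genes are 32 genes that act when a dividing cell enters mitosis, builds its spindle, separates its chromosomes and cleaves. They were chosen by name, and all 32 symbols were found among the 21983 gene symbols counted in whole liver of 6 C57BL/6 mice. Kif11, which encodes the motor that pushes spindle poles apart, was listed at 0 counts in every mouse, and whether it was among the features counted is not known. If it was, a count of 0 allows up to 3 counts, or between 0.152 and 0.245 CPM (counts scaled to the library's TMM-adjusted size, per 1e6). The other 31 genes passed the filter on low counts and were tested among 13153 genes. A gene could pass on its level in the control mice alone, so counts and medians over these 31 describe the genes tested and not the whole set.

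Both groups carried a floxed Prmt1 allele and both received thioacetamide (TAA), a hepatotoxin, at 400 mg/L in the drinking water for 16 weeks. The knockout mice (labelled Lrat-Cre; Prmt1f/f, mice 49, 82 and 88) also carried Cre driven from Lrat, a gene that marks hepatic stellate cells in liver. The control mice (labelled Prmt1f/f, mice 42, 83 and 90) had no Cre. The labels give an age of 10 weeks without saying when in the treatment it applies. No mouse without TAA was measured, so the effect of TAA on cell division was not measured. Stellate cells are a minority of liver cells, while mitotic genes can be read from any dividing cell of the organ. In whole liver, fewer dividing cells and less of these RNAs in each dividing cell cannot be told apart.

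As background, most cells of a resting adult liver do not divide, and toxic injury brings hepatocytes and other liver cells into the cell cycle. The mitotic genes are switched on together late in the cycle. The MuvB complex binds a promoter word known as the cell cycle genes homology region (CHR), often beside CCAAT boxes that bind NF-Y. The factors B-Myb and FoxM1 act there together with MuvB. Cyclin A2 and the B cyclins then activate Cdk1, Polo and Aurora kinases shape the spindle, and the anaphase-promoting complex (APC/C) ends mitosis by marking cyclins for destruction.

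Total counts ranged from 13303884 to 16462278 per mouse, of which between 571 and 4276 fell on the mitosis and spindle genes. Each pair of libraries differed by more than sampling noise. Chi-square divided by its degrees of freedom was smallest for mice 82 and 88 (16.3), and the closest pair after it joined mouse 49 to mouse 42 of the other genotype (28.4). Prmt1 itself was at 38.9, 44.4 and 49.8 CPM in control mice 42, 83 and 90 and at 35.8, 24.7 and 25.8 CPM in knockout mice 49, 82 and 88. Its groups did not overlap, and its log2 fold change was -0.62 (SE 0.20, adjusted p = 0.347 in edgeR). For the mitosis and spindle genes knockout mouse 49 stood apart from the other knockout mice, so fold changes are also given without it.

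The promoters of 5 members are shown because, among the 12 members with the smallest p and the most abundant member of each role, they hold both CCAAT and a CHR word (TTTGAA or TTCGAA) in the 250 bases before the start. Sequences are from RefSeq on GRCm38.p6, run 5′ to 3′ on the gene's own strand, and carry both kinds of word in capitals, read on either strand (ATTGG is CCAAT on the other strand, TTCAAA is TTTGAA on the other strand, and TTCGAA reads the same on both). Each stretch starts 15 bases before its first word and stops before the gene body in the GENCODE annotation, so 1 CHR word of Cdk1 and the CHR word of Ube2c lie beyond what is printed. Top2a is on the minus strand at chr11:99024192-99024431, Mki67 on the minus strand at chr7:135716457-135716582, Cdk1 on the minus strand at chr10:69352939-69353135, Ube2c on the plus strand at chr2:164769686-164769897 and Ect2 on the minus strand at chr3:27153914-27154007.
Top2a: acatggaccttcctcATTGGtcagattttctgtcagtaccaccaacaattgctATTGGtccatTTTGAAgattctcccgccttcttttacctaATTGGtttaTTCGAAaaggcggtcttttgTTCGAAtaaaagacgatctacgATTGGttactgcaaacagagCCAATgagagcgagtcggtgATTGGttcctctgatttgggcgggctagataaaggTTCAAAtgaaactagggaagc
Mki67: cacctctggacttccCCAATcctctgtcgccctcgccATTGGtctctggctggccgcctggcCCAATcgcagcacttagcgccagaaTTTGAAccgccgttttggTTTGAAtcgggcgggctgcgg
Cdk1: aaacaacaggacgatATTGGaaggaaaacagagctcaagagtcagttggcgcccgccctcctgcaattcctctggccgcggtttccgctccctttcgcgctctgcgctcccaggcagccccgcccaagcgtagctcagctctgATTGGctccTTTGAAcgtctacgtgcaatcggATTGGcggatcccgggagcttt
Ube2c: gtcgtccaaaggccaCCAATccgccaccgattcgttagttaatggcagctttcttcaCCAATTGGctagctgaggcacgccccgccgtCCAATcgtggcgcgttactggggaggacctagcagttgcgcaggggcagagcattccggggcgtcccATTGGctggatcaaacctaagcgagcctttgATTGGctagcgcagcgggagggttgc
Ect2: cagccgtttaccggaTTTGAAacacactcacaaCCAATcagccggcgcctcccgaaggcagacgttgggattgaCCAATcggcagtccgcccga
In Ube2c the second and the third match overlap as CCAATTGG. RefSeq windows were matched for 27 of the 32 members. A CCAAT word was present in 21 of them (77.8%) and in 36.5% of the 10325 windows of genes tested, while a CHR word was present in 10 (37.0%) and in 12.4%. Both words together were present in 9 members (33.3%) and in 4.79% of the windows of genes tested, and in 34.5%, 17.4% and 6.21% of all 27025 promoters for CCAAT, CHR and both. The members were not alone in this. Among 65 windows of other mitotic genes the shares for CCAAT, CHR and both were 63.1%, 36.9% and 27.7%. Among 32 windows of DNA replication genes they were 62.5%, 21.9% and 18.8%. These shares describe letters in a fixed window and were not tested. The printed members did not share 1 pattern of values over the mice. Top2a and Cdk1 were lower in mouse 49 than in any control mouse, and Ect2 was higher in mouse 49 than in any control mouse.

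As a set, the mitosis and spindle genes were lower in knockout than in control livers, by a median log2 fold change of -1.22 over the 31 genes tested, against -0.02 over all 13153 genes tested. A negative fold change was found in 31 of 31, against 52.7% of all genes tested. By edgeR's quasi-likelihood test 0 of 31 passed an adjusted p of 0.05, where 0% of all genes passed. The smallest adjusted p was 0.267 (Racgap1). At an unadjusted p under 0.05, 14 of 31 were lower and 0 higher, against 5.95% of all genes lower and 5.06% higher. DESeq2 called Racgap1, Top2a and Mki67 lower, 3 of 31, where it called 0.936% of all genes lower, and it called 0 of 31 higher against 0.875% of all genes. Limma-voom called 0 of 31 and 0% of all genes. With a weight per library it called 21 of 31 lower and 1.96% of all genes lower. The weights were 0.684, 1.47 and 0.315 for control mice 42, 83 and 90 and 0.506, 2.98 and 2.09 for knockout mice 49, 82 and 88. The smallest thus fell on mouse 90, the control mouse with the lowest summed member level, and mouse 49 had the smallest among knockout mice. The groups did not overlap in 15 of 31, against 7.95% of all genes with every knockout mouse lower. In 0 of 31 was every knockout mouse higher, against 8.94% of all genes.

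The 3 knockout livers were unlike each other. Summed over the members, the level was 188, 217 and 144 CPM in control mice 42, 83 and 90, and 151, 55.3 and 41.1 CPM in knockout mice 49, 82 and 88. By this sum mouse 49 lay inside the control range, while mice 82 and 88 lay far under it. By the mean of log2 CPM, which weights the genes equally, mouse 49 (1.95) lay just under the lowest control mouse (1.99). Mice 82 and 88 were both under all 3 control mice in 30 of 31 genes, against 17.3% of all genes tested, with Bub1b the exception. Mouse 49 was above both mice 82 and 88 in 31 of 31 (40.0% of all genes) and above at least 1 control mouse in 16 of 31 (73.7% of all genes). It was under all 3 control mice in the other 15, against 26.3% of all genes. Mouse 88 was the lowest of the 6 mice in 24 genes and mouse 82 in 7. For Ccnb1, Ccnb2, Ttk and Ndc80 these 2 mice had equal counts, so mouse 88 was lowest there through library size alone. Among controls, mouse 83 was the highest mouse in 21 genes, mouse 42 in 6 and mouse 90 in 2, and mouse 49 was the highest in 2 (Ccnb2 and Ect2). The highest and lowest mouse were not counted over all genes. Mouse 83 was above both other control mice in 22 of 31, against 26.8% of all genes. Without mouse 49 the median log2 fold change was -1.95, and 30 of 31 genes had an unadjusted p under 0.05 in the lower direction, against 6.58% of the 13399 genes then tested. Over all genes 0 of 31 members then passed the adjusted threshold in edgeR (0.0299% of all genes did so in the lower direction), with a smallest adjusted p of 0.0645 (Ccnb1). Mouse 49 was singled out by the values of these same genes, so p-values without it are not independent support. Without mouse 82 the median was -1.07, with 11 of 31 lower at an unadjusted p under 0.05 in edgeR (3.95% of all genes). Without mouse 88 it was -0.84, with 13 of 31 (5.25% of all genes).

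**Figure D1:**
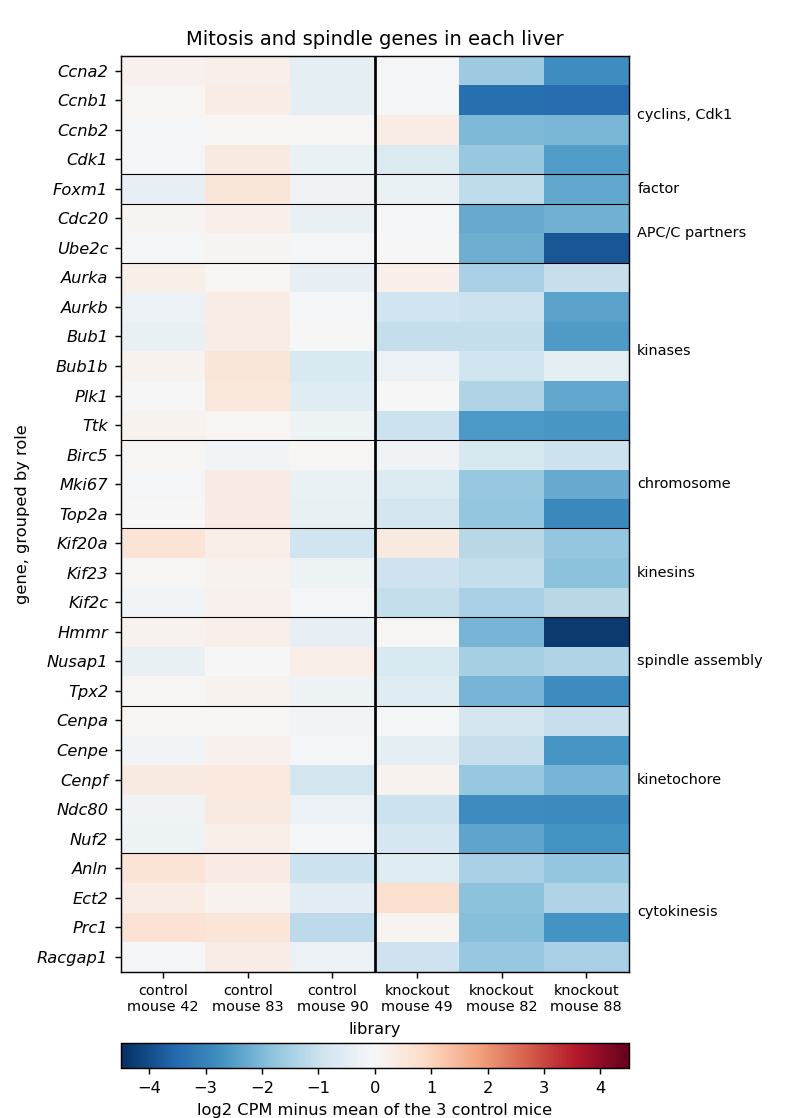
Heat map of log2 CPM (prior count 2) minus the mean of the 3 control mice for the 31 tested genes (rows, grouped by role) in each library (columns, control mice left of the black line). The columns of knockout mice 82 and 88 are blue in each row, while that of mouse 49 ranges from pale blue to pale red.

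The mouse numbers fall into a low pair (42 and 49) and 4 numbers over 80, and no label calls this split a batch. Within the low pair, knockout mouse 49 was under control mouse 42 in 27 of 31 genes and above it in 4, while it was above mouse 42 in 50.8% of all genes. The difference had a median of -0.37 log2 (range -1.17 in Anln to 0.43 in Ccnb2), with 1 mouse per group and no test. Among the numbers over 80, knockout mice 82 and 88 were under control mice 83 and 90 on average in 31 of 31, by a median of -1.92 log2 (range -3.35 in Ccnb1 to -0.59 in Bub1b). The share of all genes with this order was not counted. A fit on the 4 mice numbered over 80 gave a median log2 fold change of -1.99 and called 0 of 31, where it called 0 of all genes. In it 29 of 31 were lower at an unadjusted p under 0.05 (9.98% of all genes). A term for the split gave a median of -1.41 and called 0 of 31 (0.0456% of all genes, each lower), with 23 of 31 at an unadjusted p under 0.05 and lower (8.91% of all genes).

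Proliferation marks that sit on chromosomes were lower in each knockout mouse than in any control mouse. Mki67, the Ki-67 protein that coats mitotic chromosomes and is the standard marker of cycling cells, was at 20.9, 28.3 and 17.7 CPM in control mice 42, 83 and 90 and at 14.2, 6.59 and 4.46 CPM in knockout mice 49, 82 and 88. The groups did not overlap, and mouse 49 lay nearer to the controls than to mouse 88. Means were 22.3 ± 5.46 against 8.42 ± 5.13 CPM (SD, n = 3 per group), a log2 fold change of -1.40 (SE 0.40, adjusted p = 0.323 in edgeR and 0.0485 in DESeq2), and -2.01 (SE 0.31) without mouse 49. Mki67 occupies chr7:135689784-135716361 on the minus strand (GRCm38, GENCODE M21). Top2a, the topoisomerase that untangles sister chromatids, was at 14.9, 19.5 and 12.1 CPM in the same order of control mice and at 8.49, 4.42 and 1.94 CPM in the knockout mice. Its groups were likewise separate (log2 fold change -1.64, SE 0.46, adjusted p = 0.323 in edgeR and 0.0341 in DESeq2, and -2.28 without mouse 49). Birc5, the survivin subunit of the chromosomal passenger complex, had a smaller difference (-0.59, SE 0.33, adjusted p = 0.527, and -0.87 without mouse 49), though its groups did not overlap either. Their gap was narrow for Birc5, with mouse 49 at 3.92 CPM (61 counts) and control mouse 83 at 4.06 CPM (80 counts). The order of these 2 mice is not resolved.

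The cyclins and Cdk1 all had negative fold changes, but they differed in how mouse 49 stood. Cdk1, the kinase that drives entry into mitosis, was at 9.79, 14.0 and 8.42 CPM in control mice 42, 83 and 90 and at 6.56, 3.15 and 1.73 CPM in knockout mice 49, 82 and 88. Each knockout mouse was under each control mouse (log2 fold change -1.49, SE 0.45, adjusted p = 0.328, and -2.14 without mouse 49). Ccnb1, cyclin B1, had 71, 110 and 39 counts in the control mice, 65 counts in mouse 49, and 4 counts each in mice 82 and 88. Mouse 49 was among the controls, and the other knockout mice were almost without reads. Its log2 fold change was -1.48 (SE 0.86, adjusted p = 0.541) with all mice and -3.90 (SE 0.51, adjusted p = 0.0645) without mouse 49. Ccnb2, cyclin B2, was at 5.73, 6.35 and 6.29 CPM in controls, 7.79 CPM in mouse 49, and 1.42 and 1.37 CPM in mice 82 and 88. Mouse 49 was thus the highest of the 6 mice for cyclin B2 (log2 fold change -0.78, SE 0.62, and -2.12 without mouse 49). Ccna2, cyclin A2, had overlapping groups as well (-1.13, SE 0.61, and -2.23 without mouse 49).

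Foxm1, the transcription factor of the late cell cycle, was at 2.86, 5.59 and 3.35 CPM in control mice 42, 83 and 90 and at 3.02, 1.65 and 0.648 CPM in knockout mice 49, 82 and 88. Mouse 49 was above control mouse 42, so the groups overlapped (log2 fold change -1.14, SE 0.54, adjusted p = 0.461). Without mouse 49 it was -1.78 (SE 0.54).

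The partners of the APC/C had near-control levels in mouse 49. Ube2c, the ubiquitin-conjugating enzyme of the APC/C, was at 7.79, 8.84 and 7.68 CPM in control mice 42, 83 and 90 and at 8.24, 1.65 and 0.432 CPM in knockout mice 49, 82 and 88. Control mice differed little from each other (8.10 ± 0.636 CPM, SD, n = 3), and mice 82 and 88 were far below them. The log2 fold change was -1.22 (SE 0.77, adjusted p = 0.57), and -2.96 (SE 0.52, adjusted p = 0.0907) without mouse 49. Cdc20, the APC/C coactivator that starts anaphase, was at -1.16 (SE 0.58) and at -2.32 without mouse 49.

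Of the mitotic kinases, Ttk, Bub1 and Aurkb had separate groups, while Plk1, Bub1b and Aurka overlapped. Ttk, the Mps1 kinase that starts the spindle checkpoint, was at 2.27, 2.13 and 1.72 CPM in control mice 42, 83 and 90 and at 0.965, 0.225 and 0.216 CPM in knockout mice 49, 82 and 88. The last 2 values rest on 3 counts each. Its log2 fold change was -2.07 (SE 0.60, adjusted p = 0.323), and -3.16 without mouse 49. Bub1, a checkpoint kinase at the kinetochore, was at 1.47, 2.44 and 1.88 CPM in the control mice and at 0.836, 0.824 and 0.216 CPM in mice 49, 82 and 88. Here mouse 49 was level with mouse 82 (-1.61, SE 0.54, adjusted p = 0.353, and -1.88 without mouse 49). Aurkb, the Aurora kinase that corrects faulty attachments, was at 2.40, 3.66 and 2.78 CPM in controls and at 1.48, 1.42 and 0.432 CPM in knockouts, again with mouse 49 level with mouse 82 (-1.40, SE 0.49, adjusted p = 0.368, and -1.67 without mouse 49). Aurka, the Aurora kinase of the centrosomes, stood in contrast at 7.33, 6.35 and 4.66 CPM in controls and at 7.01, 2.10 and 2.88 CPM in knockouts. Mouse 49 was above 2 of the 3 control mice for Aurka (-0.61, SE 0.45, adjusted p = 0.626, and -1.29 without mouse 49). Plk1, the Polo kinase, was at -1.01 (SE 0.60) and at -1.95 without mouse 49. Bub1b, the BubR1 checkpoint protein, was at -0.62 (SE 0.39) and moved least without mouse 49 of these 3 overlapping kinases (-0.77).

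Among kinesins, Kif2c, which removes tubulin from microtubule ends, was at 1.73, 2.18 and 1.80 CPM in control mice 42, 83 and 90 and at 0.836, 0.599 and 0.720 CPM in knockout mice 49, 82 and 88. The 3 knockout mice lay close together, unlike most members (log2 fold change -1.40, SE 0.40, adjusted p = 0.323, and -1.52 without mouse 49). Kif23, the motor of the central spindle, was at 3.06, 3.35 and 2.53 CPM in controls and at 1.48, 1.35 and 0.720 CPM in knockouts, with separate groups (-1.33, SE 0.40, adjusted p = 0.323, and -1.53 without mouse 49). Kif20a, a kinesin needed for cleavage, was at 6.06, 4.88 and 2.04 CPM in controls and at 5.28, 1.57 and 1.08 CPM in knockouts. Control mouse 90 was low for this gene and mouse 49 high, so the groups overlapped (-0.71, SE 0.62, adjusted p = 0.679, and -1.71 without mouse 49). Exons of Kif20a share 1271 bases with Cdc23 on the other strand, and without a stated strand setting their reads cannot be told apart; Cdc23 was at 0.08 (SE 0.17).

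Spindle assembly factors had separate groups for Tpx2 and Nusap1. Tpx2, which activates Aurora A on the spindle, was at 7.79, 8.23 and 6.38 CPM in control mice 42, 83 and 90 and at 5.08, 1.65 and 0.936 CPM in knockout mice 49, 82 and 88. Mouse 49 was under the lowest control mouse by a small margin (log2 fold change -1.53, SE 0.54, adjusted p = 0.372, and -2.53 without mouse 49). Nusap1, which bundles spindle microtubules, was at 3.53, 4.52 and 5.56 CPM in controls and at 2.70, 1.498 and 1.66 CPM in knockouts (-1.21, SE 0.36, adjusted p = 0.325, and -1.51 without mouse 49). It was one of the few members with control mouse 90 highest. Hmmr, a microtubule-binding protein, had 67, 92 and 37 counts in controls, 65 in mouse 49, 11 in mouse 82 and 1 in mouse 88, the lowest count of any tested member in any mouse (-1.24, SE 0.87, and -3.17 without mouse 49).

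The kinetochore genes included the largest fold change of the set with all 6 mice, that of Ndc80, whereas without mouse 49 Ccnb1 had the largest (-3.90, against -3.64 for Ndc80). Ndc80, the microtubule-binding core of the kinetochore, was at 1.67, 2.54 and 1.55 CPM in control mice 42, 83 and 90 and at 0.901, 0.150 and 0.144 CPM in knockout mice 49, 82 and 88, the last 2 from 2 counts each. All knockout mice were under all control mice (log2 fold change -2.22, SE 0.68, adjusted p = 0.33, and -3.64 without mouse 49). Nuf2, its partner in the same complex, was at 1.80, 2.64 and 2.04 CPM in controls and at 1.22, 0.300 and 0.216 CPM in knockouts (-1.86, SE 0.62, adjusted p = 0.353, and -3.03 without mouse 49). For both genes mouse 49 was above mice 82 and 88, as for every tested member. The order of mice 82 and 88 is not resolved, since Nuf2 had 4 and 3 counts there and Ndc80 had equal counts. Cenpa, the histone variant that marks centromeres, was at 6.80, 6.65 and 5.97 CPM in controls and at 6.24, 3.59 and 3.10 CPM in knockouts. Its range was narrow (-0.58, SE 0.32, adjusted p = 0.528, and -0.95 without mouse 49). The large motor Cenpe and the large scaffold Cenpf were at -1.19 (SE 0.54) and -1.01 (SE 0.63), and at -1.76 and -2.13 without mouse 49.

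Cytokinesis genes held both the smallest and the largest p of the set. Racgap1, the GTPase-activating subunit of centralspindlin, was at 6.86, 9.04 and 5.97 CPM in control mice 42, 83 and 90 and at 3.73, 2.10 and 2.52 CPM in knockout mice 49, 82 and 88. The groups were well apart (7.29 ± 1.58 against 2.78 ± 0.849 CPM, SD, n = 3 per group), with a log2 fold change of -1.39 (SE 0.33, adjusted p = 0.267 in edgeR and 0.0146 in DESeq2) and -1.66 without mouse 49. Racgap1 occupies chr15:99620496-99651656 on the minus strand of GRCm38. Ect2, the exchange factor that centralspindlin recruits to activate RhoA, was at 12.4, 10.9 and 7.11 CPM in controls and at 16.2, 2.62 and 3.74 CPM in knockouts. Mouse 49 was the highest and mice 82 and 88 the lowest of all 6 (-0.43, SE 0.61, adjusted p = 0.803, and -1.67, SE 0.35, adjusted p = 0.122, without mouse 49). Anln, the anillin of the cleavage ring, and Prc1, which bundles midzone microtubules, were at -1.36 (SE 0.51) and -1.22 (SE 0.75), and at -1.83 and -2.62 without mouse 49, with control mouse 90 low in both.

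**Figure D2:**
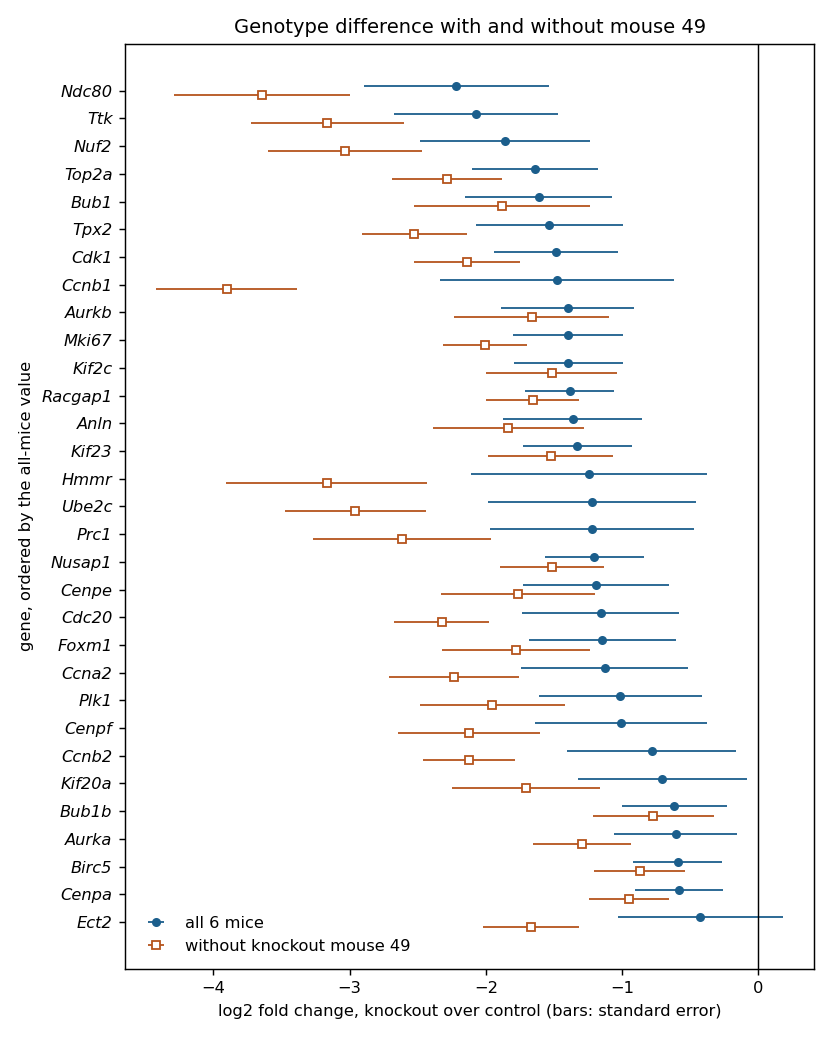
Log2 fold change (x axis, knockout over control) with its standard error from edgeR for each tested gene (y axis), with all 6 mice (filled circles) and without knockout mouse 49 (open squares). Each value is under 0 in both fits, and the open squares lie further from 0, most of all for Ccnb1 (-1.48 and -3.90). Mouse 49 was above both mice 82 and 88 in 31 of 31 genes, so the direction of this shift was fixed in advance.

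As a share of the mean of the control mice, the level in mouse 49 ranged from 43.4% (Bub1) to 160% (Ect2), with a median of 76.9%, and 7 of 31 genes were at or above the control mean. In mouse 82 the share ranged from 6.65% (Ccnb1) to 59.7% (Birc5), with a median of 29.6%, and in mouse 88 from 1.78% (Hmmr) to 68.5% (Bub1b), with a median of 16.5%. In mice 82 and 88, 0 of 31 genes reached the control mean. The shares of all genes that did so in each mouse were not counted. The genes at or above the control mean in mouse 49 were Ect2, Ccnb2, Kif20a, Aurka, Hmmr, Cenpf and Ube2c. Those with the lowest shares there were Bub1, Kif2c, Ndc80, Ttk and Kif23.

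**Figure D3:**
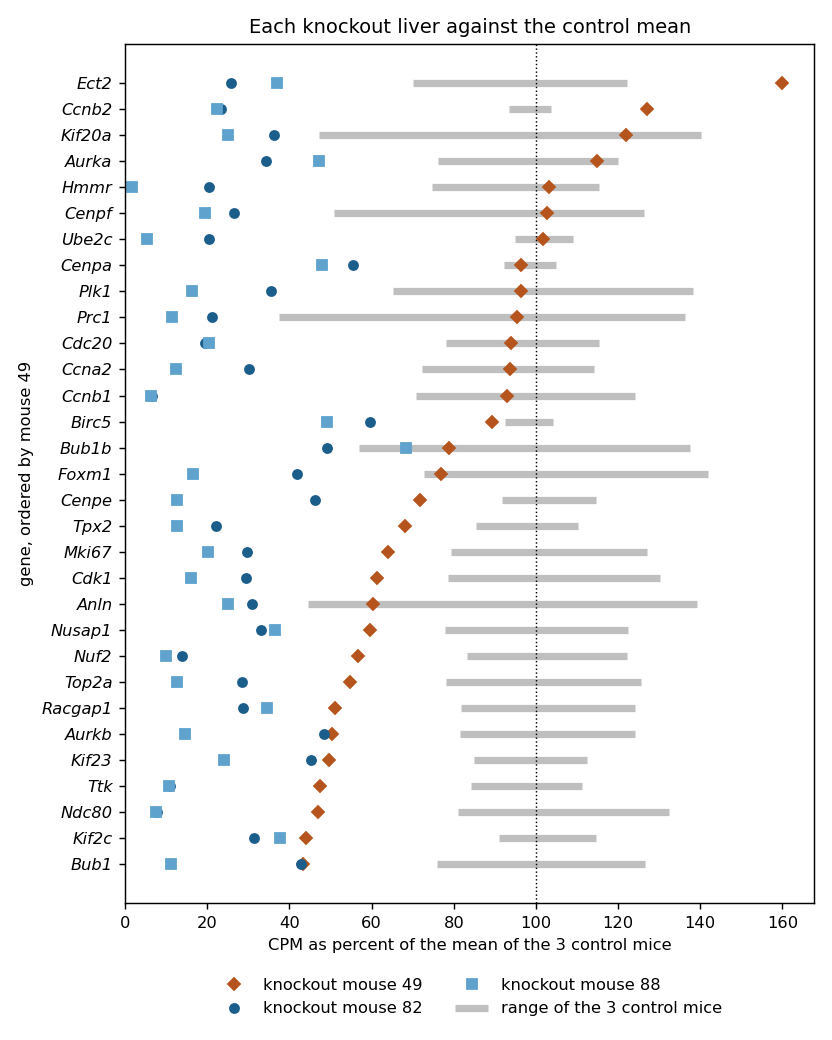
Level of each tested gene (y axis) in knockout mice 49 (diamonds), 82 (circles) and 88 (squares) as percent of the mean CPM of the 3 control mice (x axis); grey bars span the control mice. Diamonds run from 43.4% to 160%, and circles and squares stay under 70% throughout.

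Over the 6 mice the members varied together, with a median pairwise correlation of log2 CPM of 0.89 over 465 pairs (range 0.45 to 0.999). All these points share the same 6 libraries, so the values describe the set and carry no test. Tpx2 (r = 0.995), Mki67 (0.992) and Cenpa (0.99) lay closest to the mean of the other members, and Bub1b (0.669), Kif2c (0.835) and Ect2 (0.845) furthest from it. Per length, as RPKM (CPM per kilobase of exon) averaged over the 6 mice, levels ran from 0.178 (Ndc80) to above 3 for Ccnb2 (3.15) and Cdc20 (3.00), with Ube2c at 2.22, Aurka at 1.997, Mki67 at 1.53 and Cdk1 at 1.47. These means pool both genotypes, so the order of near neighbours such as Ccnb2 and Cdc20 is not resolved. Counts were low, with under 10 counts for 12 of 31 genes in mouse 88 and for 5 in mouse 82, and 18 of 31 genes had at least 10 counts in every mouse.

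Other genes of the cell cycle were taken from lists written from general knowledge, each counted in the same fit. A list of other mitotic genes (kinetochore, condensin and spindle genes) held 78 symbols, of which 75 were found and 69 were tested. The rest did not pass the filter, with Nek2 and Plk4 at 0 in every mouse. Here too a gene could pass on its level in the control mice alone. Of the 69 tested genes, 64 had a negative fold change (52.7% of all genes). Their median was -0.95 (-1.40 without mouse 49), and 34 had every knockout mouse lower (7.95% of all genes). EdgeR called 0 of them (0% of all genes), 28 were lower at an unadjusted p under 0.05 (5.95% of all genes), and DESeq2 called 3 lower (0.936% of all genes). Sgo1, which protects centromeric cohesion, averaged 1.78 ± 0.194 CPM over controls against 0.329 ± 0.117 CPM over knockouts (SD, n = 3 each, log2 fold change -2.40, SE 0.48, adjusted p = 0.227). Mad2l1, the checkpoint protein Mad2, was at 13.3 ± 1.29 against 5.46 ± 1.47 CPM (-1.28, SE 0.26, adjusted p = 0.227). For both, mouse 49 lay under each control mouse.

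DNA replication genes had a smaller median difference. Of 41 genes 38 had a negative fold change (52.7% of all genes), with a median of -0.64 (-0.80 without mouse 49). In 24 of them every knockout mouse was lower (7.95% of all genes). EdgeR called 0 (0% of all genes), 18 were lower at an unadjusted p under 0.05 (5.95% of all genes), and DESeq2 called 8 lower (0.936% of all genes). Uhrf1, which carries methylation marks through replication, was at 9.66, 13.2 and 8.66 CPM in control mice 42, 83 and 90 and at 3.73, 2.77 and 2.45 CPM in knockout mice 49, 82 and 88 (-1.81, SE 0.29, adjusted p = 0.183). Mcm6, a subunit of the replicative helicase, was at 26.9, 33.0 and 26.2 against 13.2, 14.4 and 13.4 CPM (-1.07, SE 0.18, adjusted p = 0.20). Mouse 49 was level with the other knockout mice for Mcm6 and somewhat above them for Uhrf1. The list mean of log2 CPM was -0.45, -0.67 and -0.80 from the control mean in mice 49, 82 and 88, where the mitosis and spindle genes were at -0.35, -1.68 and -2.21. Control mice spread from -0.06 to 0.05 for replication and from -0.32 to 0.26 for mitosis. The difference between the lists was not tested.

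Lists of genes upstream of mitosis and of the stable machinery had medians nearer to 0. For comparison, 52.7% of all genes were negative. At an unadjusted p under 0.05 in edgeR 5.95% were lower and 5.06% higher, and DESeq2 called 0.936% lower and 0.875% higher. G1/S cyclins and E2F genes had a median of -0.35 (15 genes, 12 negative, edgeR 0 called, 4 lower at an unadjusted p under 0.05, DESeq2 0). Cdk4, the G1 kinase, was at -0.60 (SE 0.18, adjusted p = 0.323) and E2f2, an activator of S phase genes, at -0.97 (SE 0.35, adjusted p = 0.384). Inhibitors of cyclin-dependent kinases had a median of -0.46 (7 genes, 5 negative, edgeR 0, unadjusted 1 lower, DESeq2 1 lower). Cdkn2b, the p15 inhibitor, was at -1.86 (SE 0.49, adjusted p = 0.305) and Cdkn2c, the p18 inhibitor, at -0.48 (SE 0.22, adjusted p = 0.46). The core of the APC/C had a median of -0.07 (15 genes, 10 negative, edgeR 0, unadjusted 1 lower, DESeq2 0), with Anapc4 at -0.46 (SE 0.17, adjusted p = 0.384) and Anapc16 at -0.23 (SE 0.19, adjusted p = 0.664). The list of MuvB, NF-Y and related pocket protein and E2F genes had a median of -0.04 (14 tested of 15 listed, 8 negative, edgeR 0, unadjusted 0 lower and 1 higher, DESeq2 0). Nfya, a subunit of NF-Y, was at 0 in every mouse and was not tested. Tfdp2, an E2F partner, was at 0.67 (SE 0.24, adjusted p = 0.37) and Rbl1, the pocket protein p107, at -0.55 (SE 0.26, adjusted p = 0.467).

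**Figure D4:**
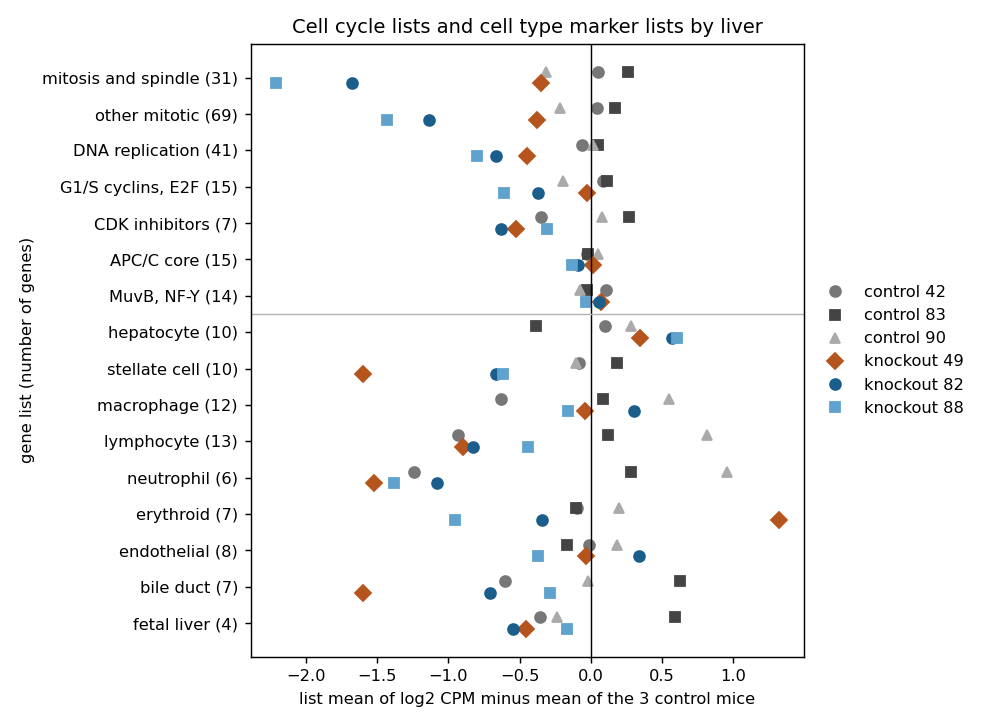
Mean log2 CPM of each list minus the mean of the 3 control mice (x axis) for every mouse, with cell cycle lists above the grey line and cell type marker lists below it (number of genes in brackets). Mice 82 and 88 lie at -1.68 and -2.21 for mitosis and spindle genes with mouse 49 at -0.35, whereas mouse 49 is lowest for stellate cell markers (-1.60) and highest for erythroid markers (1.32).

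Marker lists of liver cell types had other patterns over the mice. EdgeR called 0 genes in each of the 9 lists, and the counts that follow are of signs. Of all genes 52.7% had a negative sign. At an unadjusted p under 0.05 in edgeR 5.95% of all genes were lower and 5.06% higher, and DESeq2 called 0.936% lower and 0.875% higher. Hepatocyte markers had a positive fold change in 8 of 10 genes (2 at an unadjusted p under 0.05, 1 called by DESeq2). Their list mean was higher in each knockout mouse, while their summed levels overlapped, at 81683, 75268 and 111384 CPM in control mice 42, 83 and 90 and 93221, 107533 and 104009 CPM in knockout mice 49, 82 and 88. Stellate cell markers had a negative fold change in 9 of 10 (6 at an unadjusted p under 0.05, 5 called by DESeq2), with sums between 1252 and 1492 CPM in controls and between 409 and 855 CPM in knockouts, mouse 49 being the lowest. Bile duct markers had negative signs in 7 of 7, with overlapping sums (529 to 1314 against 285 to 742 CPM) and mouse 49 again lowest. Lymphocyte markers had negative signs in 12 of 12 tested, several of them near 0 in size (4 at an unadjusted p under 0.05, 1 called by DESeq2), and their sums overlapped (20.8 to 71.6 against 22.6 to 48.5 CPM). Neutrophil markers had negative signs in 4 of 4 tested (4 at an unadjusted p under 0.05, 2 called by DESeq2). Their sums were 17.6 to 81.5 against 11.6 to 17.3 CPM, just apart, while their list means overlapped. Macrophage markers had negative signs in 5 of 11 tested (364 to 1166 against 571 to 725 CPM), with Trem2 at 0 in every mouse. Endothelial markers had them in 3 of 8 (286 to 386 against 242 to 404 CPM) and fetal liver markers in 2 of 3 tested (88.5 to 155 against 75.8 to 89.9 CPM). Erythroid markers had a negative sign in 1 of 6 tested (36.2 to 84.5 against 45.2 to 194 CPM), mouse 49 being the highest. These signs depended on mouse 49, as the median log2 fold change of the list was 0.84 with all mice and -0.87 without it. The part of these cell types in the values of the mitosis and spindle genes was not tested.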

How the data were processed

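RNA of whole liver from 6 mice, 3 per genotype, was sequenced after TRIzol isolation and library preparation with the NEBNext Ultra RNA kit, per the labels' protocols. The authors deposited raw counts per gene symbol. Per the submitters' processing notes, the tools were Trimmomatic, FastQC, STAR and HTSeq and the build mm10, with no version. Which annotation and strand setting were used is not given in the sources used; overlapping genes (Kif20a with Cdc23, Prc1 with Rccd1, Ube2c with Tnnc2, Ccna2 with Exosc9) and the pseudogenes of Ccnb1 and Ccnb2 make those members uncertain.

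Counts were filtered with filterByExpr (13153 of 21983 genes kept), given TMM factors and fitted in edgeR 4.0.16 under R 4.3.3 (quasi-likelihood), genotype as the only term, with Benjamini-Hochberg adjustment over all genes at 0.05. The standard error comes from the fold change and F. Prior count 2 was used for log2 CPM. The labels describe separate mice, and depth limits genes of few counts most. The fit was checked on simulated data.

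Alternatives were other scalings and filters, DESeq2 1.42.0, limma-voom (limma 3.58.1) with and without library weights, a robust fit, a mouse-number term, a table without its 20 most abundant genes, a threshold of 0.10, and fits without each mouse in turn. A fit on the 4 mice numbered over 80 was chosen after seeing the data. The choice of mouse 49 as the mouse left out beside the main values was also made after seeing them.

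The members, lists and tests were chosen with earlier results of these data known. Values in every mouse are given for the 12 members with the smallest p and for the member with the most counts in each role. The 2 genes with the smallest p of each pathway list are named. Values per mouse of Birc5, Ccnb1, Ccnb2 and Hmmr, and Cdkn1a, Hba-a1, Hbb-bs, Hbb-bt, Klf1, Alas2, Epor and Cdc23, were chosen after they were seen. Positions and exon lengths are from GENCODE M21 (GRCm38, the assembly of mm10), and promoters from RefSeq (GRCm38.p6).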

Additional observations from a re-analysis of the deposited data

How the results depend on the processing

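The 31 tested members had a negative fold change in each of the 16 alternatives that can move one (496 of 496 values, from -3.90 to -0.04). The robust fit and the looser threshold leave fold changes as they were. Called members numbered 3 with DESeq2 and 21 with limma-voom with library weights, and 0 in the other alternatives. The median log2 fold change was -1.97 with library weights, -1.99 in the 4 mice numbered over 80, and between -1.95 (without mouse 49) and -0.84 (without mouse 88) when a mouse was left out. Over all genes 238 were called with DESeq2, 560 with library weights, 4 without a low-count filter, 6 with a term for mouse number, 3 at an adjusted p of 0.10, and between 0 and 13 (without mouse 49) when a mouse was left out. The fit on the 4 mice numbered over 80 called 0 genes. Among the pathway lists (171 genes listed, not all tested) DESeq2 called 12 genes and library weights 41. Over all genes DESeq2 called 0.936% lower and 0.875% higher, and library weights called 1.96% lower. Prmt1 passed with library weights (-0.74, adjusted p = 0.0384). The cause of these differences was not tested. No paired analysis was possible because the mouse numbers are not shared between genotypes. Depth limits members with few counts, such as Ndc80, Ttk and Hmmr in mice 82 and 88.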

Other observations

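Cdkn1a, the p21 inhibitor of cyclin-dependent kinases and a target of p53, was at 238, 173 and 170 CPM in control mice 42, 83 and 90 and at 264, 86.1 and 71.3 CPM in knockout mice 49, 82 and 88. Mouse 49 was the highest and mice 82 and 88 the lowest, the same arrangement as for Ect2. Its log2 fold change was -0.46 (SE 0.46, adjusted p = 0.712 in edgeR).

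Globin RNA was high in mouse 49. Hba-a1 was at 2.53, 6.30 and 10.3 CPM in control mice 42, 83 and 90 and at 47.8, 1.95 and 1.01 CPM in knockout mice 49, 82 and 88, and Hbb-bs was at 4.86, 11.8 and 13.2 against 62.0, 3.59 and 2.45 CPM. Klf1, a factor of red cell precursors, was at 3.46, 2.64 and 2.04 CPM in the control mice and at 3.92, 4.19 and 7.06 CPM in mice 49, 82 and 88. Each knockout mouse was above each control mouse for Klf1, as in 8.94% of all genes (adjusted p = 0.426 in edgeR). Hbb-bt, another globin, was at 0.866, 1.22 and 1.80 CPM in control mice 42, 83 and 90. In knockout mice 49, 82 and 88 it was at 6.31, 0.300 and 0 CPM. Among the remaining erythroid markers, Alas2 and Epor did not set mouse 49 apart. In the same order of mice Alas2 was at 71.2, 13.2 and 31.6 against 72.6, 71.4 and 33.8 CPM. Epor was at 1.67, 0.965 and 1.23 against 0.901, 1.65 and 0.864 CPM.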
